A study of Mus musculus with 2 samples.

Results

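The genes described here are the collagens, the laminins and the integrins, that is, all genes whose symbol has the form of a collagen chain (Col, a number, a and a number), a laminin chain (Lama, Lamb or Lamc with a number) or an integrin subunit (Itga or Itgb). They were chosen by symbol alone. The 2 libraries together listed 75 such genes of 17189 genes in all, made up of 40 collagens, 11 laminins and 24 integrins. The uninjured library listed 67 of them and the injured library 73. The levels were examined in EpA cells, which belong to the ependymal lining of the central canal in the mouse spinal cord, in other cells of the same sort, and with and without an injury of the cord.

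Collagens and laminins are secreted chains that assemble into the extracellular matrix. Type I, III and V collagens form fibrils, whereas type IV collagens and laminins build the sheet of basement membrane on which epithelia, endothelium and the glial limiting membrane rest. Integrins are receptors made of an alpha and a beta subunit that span the plasma membrane, bind matrix outside and the actin cytoskeleton inside, and in some pairs bind other cells or activate latent TGF-beta. In the injured spinal cord the scar contains fibroblast-derived fibrillar matrix beside glial and vascular basement membranes.

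Cells were from adult C57BL/6J mice of at least 12 weeks that carried 1 copy of Troy-CreERT2 and the Rosa26-tdTomato reporter, in both groups. Troy is another name of Tnfrsf19, and its allele drives a recombinase that switches on the red protein tdTomato in Troy-expressing cells. The groups were uninjured cords and cords with the dorsal funiculus cut 3 days earlier. Segments of 5 mm, from the lesion or from the same level of intact cords, were dissociated with papain and sorted for tdTomato before 10x Genomics 3′ single-cell sequencing. There was 1 library per group, so the number of animals behind it does not enter any comparison, no test between groups was possible, and ranges in brackets cover counting error alone (95% intervals). The sort marks cells with recombined tdTomato, which was also measured outside EpA cells, at 1415 CPM (counts per 1000000 UMIs, that is, counted molecules with unique identifiers) in uninjured endothelial-like cells against 645 CPM in uninjured EpA cells.

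The authors' EpA set held 555 uninjured cells with 7689179 UMIs and 1004 injured cells with 25296289 UMIs, at medians of 11387 and 20158.5 UMIs per cell. The other kept cells, called cells outside EpA, were 156 uninjured cells with 1281715 UMIs and 224 injured cells with 6969678 UMIs. The sources used here do not say how the authors chose the EpA set. It rests on the same transcripts, so differences between EpA cells and cells outside EpA are descriptions. Ependymal markers summed to 17421 CPM in uninjured EpA cells and 6100 CPM in injured EpA cells, against 637 and 664 CPM outside EpA. The 2 libraries shared 16 barcodes among kept cells, which were kept apart by library. Markers of other classes in EpA cells summed to 21.7 and 22.5 CPM over 14 endothelial markers, 49.7 and 45.5 CPM over 14 microglial markers, and 9.88 and 34.8 CPM over 12 fibroblast markers, with the uninjured library first in each pair. Among fibroblast markers Lum, Dpt and Slc6a13 were at 0 in both, Serpinf1 was at 0.130 and 3.68 CPM, Igf2 at 0 and 1.27 CPM, and Fbln1 at 5.85 and 26.4 CPM. Oligodendrocyte precursor markers summed to 0.650 and 32.8 CPM in EpA cells, against 181 and 34.0 CPM outside EpA, with 4 and 5 of the 5 genes in the files detected. Mural cell markers summed to 47.1 and 766 CPM, with 6 and 11 of 11 listed genes detected. Of these sums, the actin-cytoskeleton genes Acta2 and Tagln made all but 4.16 and 13.1 CPM. The pericyte marker Pdgfrb was at 0 and 0.237 CPM, Rgs5 at 0.130 and 1.46 CPM, Kcnj8 at 0 and 6.52 CPM, Vtn at 0.390 and 1.46 CPM, and Cspg4 at 0 and 1.03 CPM. Of 7 listed neuronal markers, summing to 157 and 652 CPM, Stmn2 made 152 and 635 CPM. The part of these sums in the results was not tested. Leaving out the 22 injured EpA cells with 2 or more defining markers of other classes left the same 10 higher and 3 lower calls described next. That step removed no uninjured cell, and none of its defining markers is on the oligodendrocyte precursor or neuronal list, so it cannot decide this part.

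Sequence upstream of 3 of these genes is shown because Itga5 and Col4a6 had the largest ratios of injured over uninjured EpA cells among measured members, and Itgb1 carried the most integrin UMIs. Each stretch is the 250 bases before the RefSeq start of transcription on GRCm38.p6, on the gene's strand, and holds no annotated exon. The motifs searched, on both strands, were the AP-1 site (TGANTCA), the CArG box bound by serum response factor, and the GC box (GGGCGG). Capitals mark GC boxes on either strand, and neither of the other motifs is present in these stretches.
Itga5, chr15:103366792-103367041, minus strand: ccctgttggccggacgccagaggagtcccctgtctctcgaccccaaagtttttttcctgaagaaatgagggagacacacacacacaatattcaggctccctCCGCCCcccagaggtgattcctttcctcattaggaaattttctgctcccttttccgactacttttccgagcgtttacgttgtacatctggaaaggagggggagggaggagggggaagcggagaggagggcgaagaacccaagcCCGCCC
Itgb1, chr8:128685404-128685653, plus strand: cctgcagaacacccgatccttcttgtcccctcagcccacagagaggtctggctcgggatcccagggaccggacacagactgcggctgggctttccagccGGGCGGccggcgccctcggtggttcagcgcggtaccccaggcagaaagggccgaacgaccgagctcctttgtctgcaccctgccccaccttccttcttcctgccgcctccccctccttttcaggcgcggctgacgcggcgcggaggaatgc
Col4a6, chrX:141474077-141474326, minus strand: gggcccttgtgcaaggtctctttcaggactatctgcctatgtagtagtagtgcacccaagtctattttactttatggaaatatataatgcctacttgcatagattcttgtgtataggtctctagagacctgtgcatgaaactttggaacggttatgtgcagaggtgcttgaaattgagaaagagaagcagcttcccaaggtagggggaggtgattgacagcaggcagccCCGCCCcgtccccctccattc
The Itgb1 stretch has 68.0% G or C and 21 CpG sites, whereas the Col4a6 stretch has 47.6% and 3.

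The RefSeq table had a promoter for 53 of the 75 genes. Of 7 genes called higher in injured EpA cells that had one, 6 held a GC box and none held an AP-1 site or a CArG box. A GC box was present in 28 of the 53 and in 32.7% of all 32851 promoters in the table, an AP-1 site in 2 (Col6a1 and Itgax) and in 6.75%, and a CArG box in 1 (Lama2) and in 1.47%. The type IV collagen genes lie in head-to-head pairs. Col4a6 and Col4a5 on chromosome X start 1342 bases apart on opposite strands. Col4a1 and Col4a2 on chromosome 8 overlap at their starts by 22 bases, which is shown because this pair shares its start region and differed from the other pair in EpA cells.
Col4a1 and Col4a2 overlap, chr8:11312805-11312826, plus strand: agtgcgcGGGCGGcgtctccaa

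In EpA cells 5 of 8 measured integrins and the X-linked basement membrane collagens were higher after injury, while 3 of 4 measured laminins were within 2-fold. A gene was counted as measured when it reached 10 CPM in at least 1 of the 2 groups compared, and was called higher or lower when it then differed at least 2-fold. Of 25 measured members, 10 were called higher and 3 lower in injured EpA cells. Of the higher ones, Col4a6, Col8a1, Col11a1, Col12a1, Itga5 and Itga6 passed the floor only through the injured group. Of the lower ones, Col26a1 and Lama3 passed it only through the uninjured group. Among all 9418 measured genes, 11.4% were called higher and 11.4% lower. Over the 25 members the log2 ratio of injured to uninjured had a median of 0.39, and over all measured genes of -0.02. The other 50 members were under 10 CPM in both libraries.

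Of 8 measured integrins, 5 were higher and none lower. These counts depend on the floor. With no floor on CPM, Itga1, Itga3, Itga4, Itga7 and Itgb3 were also called higher, and Itga11, Itgam and Itgb7 were called lower. Summed over all 24 integrins, EpA cells had 259 CPM (248 to 271) without injury and 590 CPM (581 to 600) after it. Itgb1 encodes the beta1 subunit, the common partner of collagen-, laminin- and fibronectin-binding alpha subunits. Its level was 80.5 CPM without injury and 324 CPM with it, 4.03-fold higher (3.71 to 4.38), and it made 55.0% of the integrin UMIs of injured EpA cells. Itgav, the alpha-v subunit that binds RGD-containing ligands such as vitronectin and latent TGF-beta, was at 26.9 and 74.7 CPM, a ratio of 2.78 (2.40 to 3.22). Exons of Itgav overlap an antisense gene, Gm13684, and the sources used here do not say whether the counting used strand.

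Itga5 and Itga6, alpha subunits for fibronectin and laminin, were barely recorded before injury. Itga5, which pairs with beta1 as the classical fibronectin receptor, had 2 UMIs (0.260 CPM) in all uninjured EpA cells and 330 UMIs (13.0 CPM) after injury, a ratio of 50.2 (13.8 to 416). Itga6, a laminin-binding subunit, had 9 UMIs (1.17 CPM) and 336 UMIs (13.3 CPM), a ratio of 11.3 (5.91 to 25.0). Itgb4, the hemidesmosome subunit that pairs with alpha6, was at 12.0 and 29.0 CPM, a ratio of 2.43 (1.95 to 3.05), and overlaps the antisense gene B230344G16Rik. For none of these 5 genes did the intervals of the levels in the 2 libraries overlap. The other measured subunits differed little. Itgb8, which with alpha-v activates latent TGF-beta, was at 55.5 and 48.5 CPM. The vitronectin-binding Itgb5 was at 49.7 and 49.4 CPM, a ratio of 0.995 (0.886 to 1.12). Itga2b, known from platelets, was at 21.7 and 15.9 CPM.

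Of the subunits under 10 CPM in EpA cells, the collagen-binding Itga1 had 1 UMI (0.130 CPM) uninjured and 92 UMIs (3.64 CPM) injured, while the collagen-binding Itga11 had 15 UMIs (1.95 CPM) and 7 UMIs (0.277 CPM). The other collagen-binding subunits, Itga2 and Itga10, had 0 and 9 UMIs, and 21 and 50 UMIs (2.73 and 1.98 CPM). The laminin-binding Itga7 had 4 UMIs (0.520 CPM) and 84 UMIs (3.32 CPM). Exons of Itga1 overlap the same-strand gene Gm49395 and those of Itga7 the antisense gene Mettl7b. Leukocyte integrins stayed near 0, with Itgam at 0.390 and 0.0791 CPM. Itgb2 had 0 UMIs uninjured, with an interval up to 0.480 CPM, and was at 0.158 CPM injured.

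Collagens of EpA cells changed in make-up more than in sum. The 40 genes summed to 334 CPM (321 to 347) before and 400 CPM (392 to 408) after injury, but 7 of the 13 measured genes passed 2-fold, 5 of them higher and 2 lower. The leading gene was Col8a2 in the uninjured library, with 26.2% of collagen UMIs, and Col4a1 in the injured library, with 13.8%.

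Basement membrane collagens divided by gene pair. Col4a5 was at 13.8 CPM before and 39.8 CPM after injury, a ratio of 2.89 (2.36 to 3.57). Its neighbour Col4a6 had 3 UMIs (0.390 CPM) and 378 UMIs (14.9 CPM), a ratio of 38.3 (13.0 to 187). The other pair, whose chains make the ubiquitous type IV collagen, stayed within 2-fold. Col4a1 was at 42.1 and 55.3 CPM, a ratio of 1.31 (1.16 to 1.49). Col4a2 was at 15.5 and 14.1 CPM, a ratio of 0.909 (0.737 to 1.13). The 2 genes overlap on opposite strands. Col4a3 and Col4a4 did not reach 10 CPM.

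The short-chain collagens of the type VIII network moved in opposite directions. Col8a1 was at 7.41 and 38.3 CPM, 5.17-fold higher after injury (3.95 to 6.87). Col8a2, known from the Descemet membrane of the cornea, was at 87.4 and 36.3 CPM, 2.41-fold lower (2.17 to 2.66). Each gene's intervals in the 2 libraries were apart. Col12a1, a fibril-associated collagen, was at 3.64 and 24.0 CPM, a ratio of 6.60 (4.52 to 10.0). Col11a1, a minor fibrillar chain, was at 8.19 and 21.7 CPM, a ratio of 2.65 (2.04 to 3.50). Col26a1 was at 10.3 and 2.96 CPM, 3.47-fold lower (2.49 to 4.82), but without the cell with the most of its UMIs it was under 10 CPM in both libraries, at a log2 ratio of -1.78.

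Of the other fibrillar collagens, 3 were within 2-fold (Col1a2, Col5a2 and Col5a3) and 6 were under 10 CPM in both libraries. Under 10 CPM, Col2a1 had 2 UMIs (0.260 CPM) and 72 UMIs (2.85 CPM), and Col27a1 had 12 and 134 UMIs. Type I collagen is normally built from chains of both Col1a1 and Col1a2. EpA cells had 222 UMIs (28.9 CPM) and 818 UMIs (32.3 CPM) of Col1a2 but 1 UMI (0.130 CPM) and 90 UMIs (3.56 CPM) of Col1a1 in the uninjured and injured library. In fibroblast-like cells outside EpA, described further on, the same counts were 525 and 2215 UMIs of Col1a2 beside 485 and 2538 UMIs of Col1a1, so the balance of the 2 genes differed between the cells. Col3a1, the type III chain, which overlaps the same-strand gene Gm47302, had no UMI in uninjured EpA cells and 14 UMIs (0.553 CPM) in injured ones. The injured EpA cells thus held 90 Col1a1 UMIs to 14 of Col3a1, against 2538 to 3004 in injured fibroblast-like cells. Col5a2 reached 22.0 CPM after injury, a ratio of 1.47 (1.20 to 1.81). Col5a3 was at 39.8 and 28.1 CPM, and the transmembrane collagen Col23a1 at 30.7 and 20.3 CPM.

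Laminins of EpA cells were dominated by Lamb2, the beta2 chain, in both libraries. It made 55.8% of laminin UMIs in uninjured and 45.1% in injured EpA cells, and was at 78.6 and 57.3 CPM, a ratio of 0.729 (0.663 to 0.803). The alpha5 chain Lama5 was at 24.3 and 23.8 CPM, and the gamma1 chain Lamc1, shared by most laminins, at 22.1 and 29.3 CPM. Of the 4 measured laminins only Lama3, the alpha chain of epithelial laminin-332, passed 2-fold. It was at 11.4 and 4.63 CPM, 2.47-fold lower (1.85 to 3.29), and overlaps the antisense gene Gm29200. The sum over all 11 laminins was 141 CPM (132 to 149) without injury and 127 CPM (123 to 131) after it. Lama2, Lama4 and Lamb1 were each under 5 CPM, with Lama2 at 0.130 and 0.119 CPM, Lama4 at 0 and 0.277 CPM and Lamb1 at 0.650 and 3.08 CPM.

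Thinning and weighting of cells changed part of these calls. With every cell thinned to 2000 UMIs, 6 higher and 0 lower calls were left. The log2 ratios were then 0.62 for Col11a1 and 0.85 for Col4a5, while Itga5 at 3.66, Itga6 at 1.46 and Col26a1 at -2.14 were under 10 CPM, and Col8a2 was at -0.79 and Lama3 at -0.99. With every cell weighted alike the higher calls of Itga5 and Itga6 and the lower calls of Col8a2 and Lama3 were lost. A filter of at least 1000 UMIs and under 10% mitochondrial UMIs kept 176 of 555 uninjured and 819 of 1004 injured EpA cells. Among these cells Lama3, at a log2 ratio of -1.17, was under 10 CPM. The median mitochondrial share was 11.2% in all uninjured and 6.76% in all injured EpA cells.

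**Figure D1:**
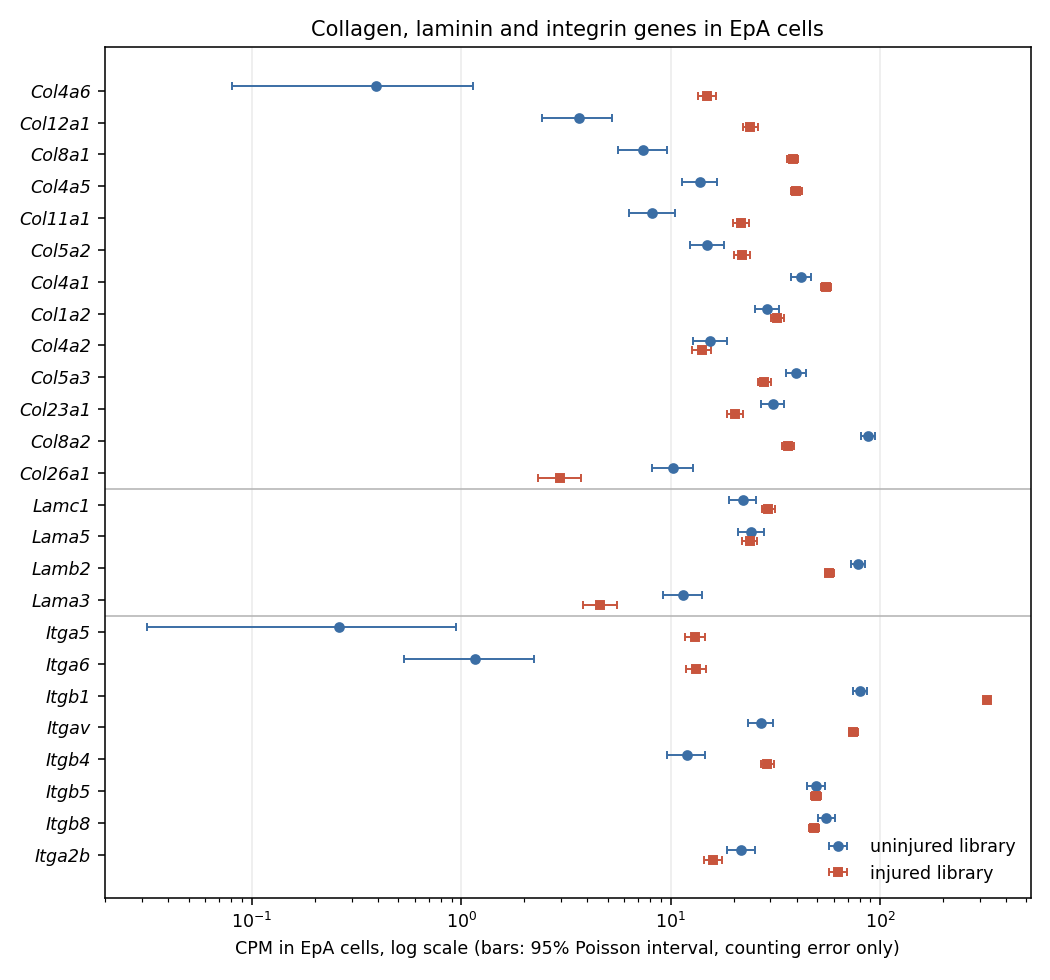
CPM on a log axis of the 25 members that reached 10 CPM in EpA cells of either library, collagens above, laminins in the middle and integrins below; circles are the uninjured and squares the injured library, 1 library each, and bars are 95% Poisson intervals for counting error. Itga5, Col4a6 and Itga6 lie under 2 CPM without injury and between 13.0 and 14.9 CPM after it, Itgb1 lies at 80.5 and 324 CPM, and Col8a2 lies at 87.4 and 36.3 CPM.

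The higher levels lay mostly in injured EpA cells that had few cilium transcripts. The share of UMIs from 56 motile cilium genes, none of them a collagen, laminin or integrin, was taken in cells thinned to 2000 UMIs, and cells were divided at 1.25%, the 5th percentile of uninjured EpA cells. This put 557 injured EpA cells below the division and 435 in the uninjured range, of which 59 and 80 cells lay within 20% of it. Both were set against the same 527 uninjured cells in that range. Below the division, 10 members were called higher and 3 lower of 25 measured, where 15.2% and 17.6% of all genes were called. In the range, 2 members were called higher and 0 lower of 22 measured, where 1.13% and 0.305% of all genes were called.

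Itgb1 was at 80.6 CPM in the uninjured cells, 121 CPM in injured cells of the range and 392 CPM in injured cells below it. Itga5 was at 0.269, 1.12 and 17.0 CPM in the same order, and Itgav at 26.6, 36.2 and 87.4 CPM. The lower collagen and the pair on chromosome X had the same split. Col8a2 was at 88.0, 99.8 and 15.4 CPM, so that injured cells in the range were 1.13-fold higher (1.02 to 1.27) than uninjured ones, and Col4a6 was at 0.403, 2.08 and 19.2 CPM. Itgb4 differed from this pattern. It was at 12.4, 28.3 and 29.3 CPM, and the ratio of cells below to cells in the range was 1.03 (0.870 to 1.23). Col12a1, at 3.76, 14.1 and 27.3 CPM, was the other gene called higher in the range. Depth moved with the division, with a median of 28543 UMIs per cell below it and 11576 in the injured range, against 11474 in uninjured cells, and its part in these levels was not tested.

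**Figure D2:**
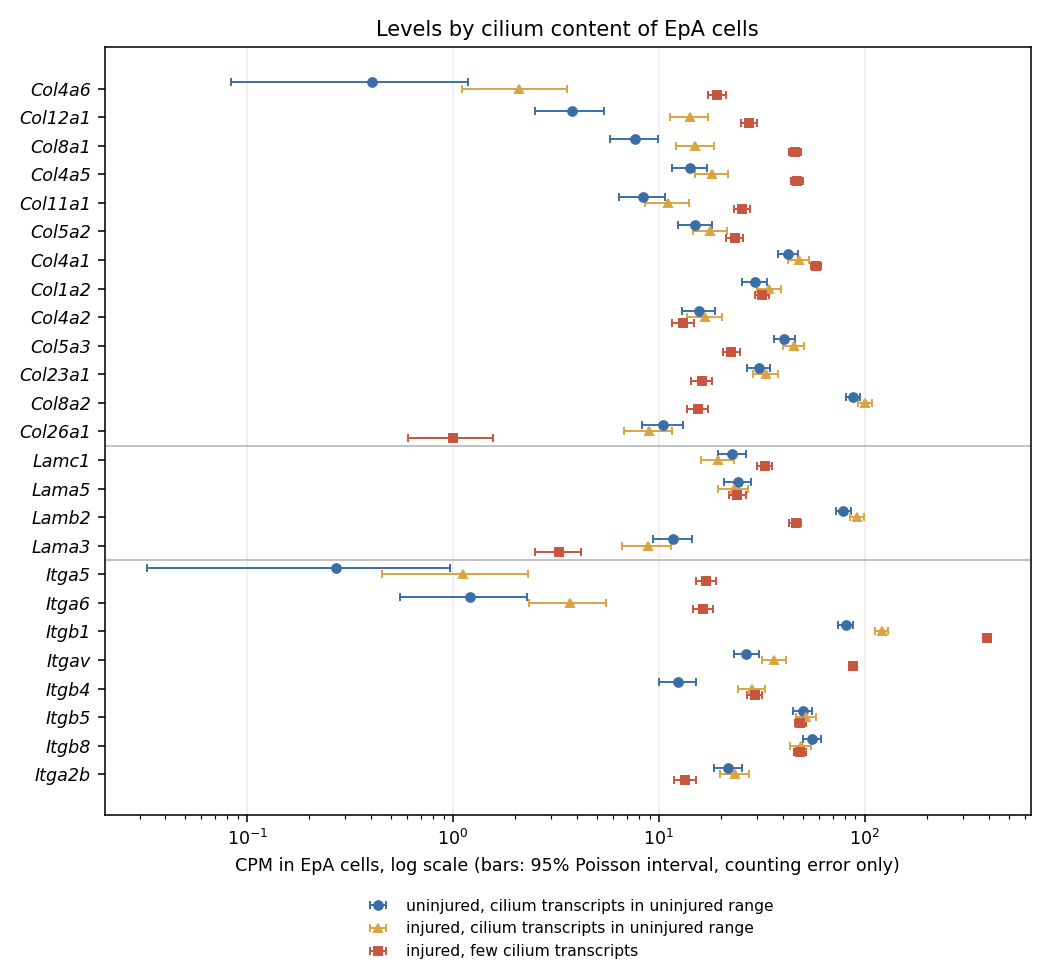
CPM on a log axis of the same 25 genes in 3 groups of EpA cells: circles, 527 uninjured cells; triangles, 435 injured cells with cilium transcripts in the uninjured range; squares, 557 injured cells with fewer; bars are 95% Poisson intervals for counting error. Triangles lie near circles for most genes, as for Col8a2 at 99.8 and 88.0 CPM, while squares stand apart for Itgb1 at 392 CPM and Col8a2 at 15.4 CPM, and for Itgb4 triangles and squares lie together at 28.3 and 29.3 CPM.

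Cells outside EpA carried more of most measured matrix and receptor genes than EpA cells did. Collagens summed to 1585 CPM (1516 to 1655) outside EpA in the uninjured library and 3161 CPM (3120 to 3203) in the injured library, and integrins to 1088 and 1209 CPM. Laminins were closer, at 169 CPM (148 to 193) and 299 CPM (287 to 313). In the uninjured library 32 of 46 measured members were called higher outside EpA and 6 lower, where 26.9% and 19.7% of all genes were called. In the injured library 25 of 40 were called higher and 9 lower, where 14.3% and 19.8% of all genes were called. Many of these members passed the floor of 10 CPM only through the cells outside EpA. In the uninjured library 9 collagens, 4 laminins and 6 integrins reached it in EpA cells, against 22, 6 and 13 outside EpA. In the injured library the counts were 12, 3 and 8, against 16, 4 and 13. The calls and medians thus lean on genes that were measured where they were high. The median log2 ratio of outside over EpA was 1.96 and 2.24 over the members and 0.14 and -0.11 over all genes, and the first did not change with the 9 members that had no UMI on one side set to their bound. Scaling by TMM moved every such log2 ratio by -0.18 (uninjured library) and 0.11 (injured library), and DESeq2 size factors by -0.16 and 0.14. Outside EpA the mix of cell classes differed between the libraries. Neutrophil markers there summed to 11181 CPM in the uninjured and 4.73 CPM in the injured library, and erythrocyte markers to 10882 and 0 CPM. The part of blood cells in these levels was not tested.

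Genes of type I and III collagen stood furthest apart. Col1a1 was at 388 CPM outside EpA in the uninjured library and 365 CPM in the injured library, and in the latter the ratio to EpA cells was 103 (83.1 to 128). Col3a1 was at 154 CPM outside EpA and 0 in EpA cells of the uninjured library. With 3 counts over all EpA cells put in place of 0, the ratio was 396. Col3a1 was at 431 CPM outside EpA in the injured library, a ratio of 780 (464 to 1428). Of receptors, the leukocyte subunit Itgam was at 83.5 and 32.0 CPM outside EpA, and its exons overlap the same-strand gene Gm49368. Itgb2, its partner, was at 59.3 and 25.7 CPM.

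A smaller set was higher in EpA cells. Col8a2 was 8.62-fold lower outside EpA in the uninjured library, at 10.1 CPM, and 11.0-fold lower in the injured library, at 3.30 CPM. Col23a1 was at 4.68 and 4.59 CPM outside EpA, 6.56-fold and 4.43-fold lower than in EpA cells. In the injured library Col4a5 and Col4a6 were 4.21-fold and 4.34-fold lower outside EpA, at 9.47 and 3.44 CPM, and Itgb8 and Itgb4 were 4.33-fold and 2.97-fold lower, at 11.2 and 9.76 CPM. Itgb8 outside EpA had been at 70.2 CPM in the uninjured library, a ratio of 1.26 (0.996 to 1.59), where astrocyte-like cells made up 29 of the 156 cells. Lama5 was 2.08-fold and 2.56-fold lower outside EpA, and Lamb2 1.48-fold and 2.83-fold lower.

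**Figure D3:**
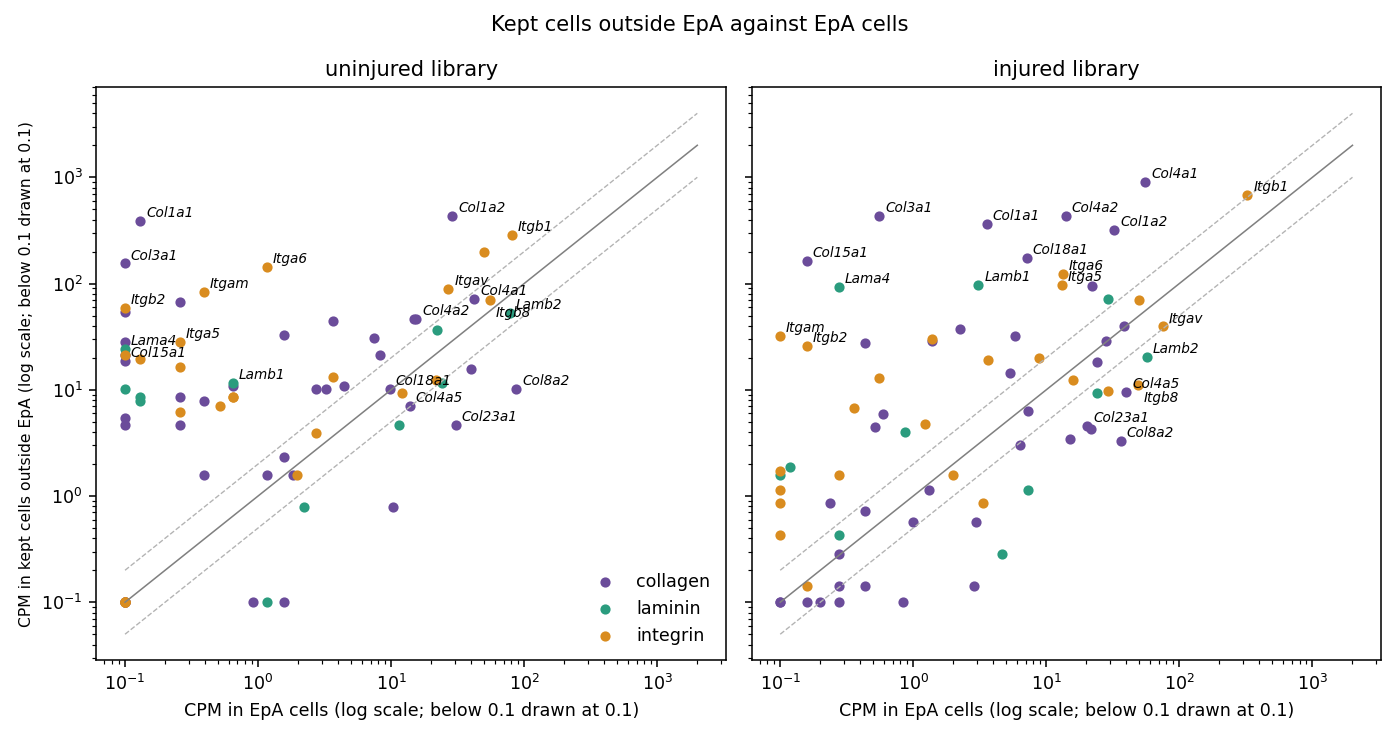
CPM of each of the 75 members in cells outside EpA (y axis) against EpA cells (x axis), both log scales with values under 0.1 drawn at 0.1, in the uninjured (left) and injured library (right); the solid line marks equal levels, dashed lines 2-fold differences, and colours the 3 families. Col1a1 and Col3a1 lie far above the line in both panels, at 388 and 154 CPM and at 365 and 431 CPM outside EpA, and Col8a2 lies below it.

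The cells outside EpA were clustered without any of the members or pathway genes and named from marker genes, with naming conditions chosen after the clusters were seen. Of 9 clusters, 1 was fibroblast-like, 3 endothelial-like, 2 microglia- or macrophage-like and 1 astrocyte-like, and 2 had no name. A class was used in a library where its cluster held at least 10 cells. All levels by class rest on few cells, and in the uninjured library no class outside EpA exceeded 46 cells.

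Fibroblast-like cells had high levels of type I and III collagens. Their collagens summed to 9661 CPM (9204 to 10134) in 29 uninjured cells and 9236 CPM (9062 to 9414) in 35 injured cells. Col1a1 was at 2786 and 2207 CPM, Col1a2 at 3015 and 1926 CPM, and Col3a1 at 1114 and 2612 CPM, the last a ratio of 2.34 (2.03 to 2.72). In the uninjured library 1 cell held 37.6% of the Col3a1 UMIs and 27.4% of those of Col1a1, and the median cell had 1223 UMIs against 19525 in the injured library. The microfibrillar Col6a2 was at 488 and 176 CPM and Col6a1 at 385 and 221 CPM. Their laminins were led by Lamb2 at 161 CPM, Lamc1 at 109 CPM, Lamc3 at 74.7 CPM and Lama4 at 51.7 CPM in the uninjured library. In the injured library the order was Lamc1 at 89.5, Lama4 at 67.8, Lamb1 at 66.9 and Lamb2 at 31.3 CPM. Lamb2 was thus 5.14-fold lower (3.02 to 8.66) after injury in these cells. Their integrins were Itgb1 at 517 and 682 CPM, Itgb5 at 224 and 80.0 CPM, Itga5 at 103 and 102 CPM and Itgav at 103 and 46.1 CPM, and 1 cell held 72.2% of the uninjured Itga5 UMIs. Mural markers summed to 1430 and 3596 CPM in the same cells, and their part in these levels was not tested.

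Injured endothelial-like cells had high levels of 2 type IV collagens, Col4a1 and Col4a2, while Col4a5 was at 0 and 0.992 CPM and Col4a6 had no UMI in either library. Col4a1 was at 118 CPM in 46 uninjured cells and 1400 CPM in 98 injured cells, and Col4a2 at 80.2 and 670 CPM. The uninjured cells came from clusters 4 and 7, while 63 of the injured cells came from cluster 8, led by Clec1a, Fam167b and Apln. The difference was also present within clusters. In cluster 4, Col4a1 was at 243 and 872 CPM, a ratio of 3.59 (2.37 to 5.65), and Col4a2 at 234 and 611 CPM. In cluster 7, Col4a1 was at 80.0 and 724 CPM, a ratio of 9.05 (6.14 to 13.8), and Col4a2 at 33.1 and 480 CPM. So both genes of the pair were higher after injury in these cells, whereas they stayed within 2-fold in EpA cells. The part of cluster make-up in the class values was not tested.

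The same injured endothelial-like cells had Col18a1, the source of endostatin, at 266 CPM and Col15a1 at 259 CPM, against 6.33 and 16.9 CPM in the uninjured class. Within cluster 8 these were 292 and 287 CPM, and in cluster 4 they were at 0 after injury. The other injured UMIs of both genes lay in cluster 7, so their presence after injury was not confined to cluster 8. The uninjured class held 3 UMIs of Col18a1 and 8 of Col15a1 in all. Laminin chains were higher too, with Lamb1 at 23.2 and 147 CPM and Lama4 at 35.9 and 138 CPM. Within cluster 7 Lama4 was at 33.1 and 29.8 CPM, a ratio of 0.900 (0.348 to 2.27). Lamc1 was at 48.6 and 90.3 CPM, while Lamb2 was 4.19-fold lower (2.63 to 6.54) after injury, at 65.5 and 15.6 CPM. These class values set mainly cluster 8, with 3539051 of the 4031646 injured UMIs, against uninjured clusters 4 and 7. Of receptors, Itgb1 was at 370 and 896 CPM, Itga6 at 148 and 170 CPM, Itga5 at 29.6 and 130 CPM and the collagen-binding Itga1 at 46.5 and 27.5 CPM. Within clusters 4 and 7 the ratio of Itgb1 was 1.38 (0.947 to 2.05) and 1.90 (1.53 to 2.37).

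Microglia- or macrophage-like cells had receptors and little matrix. Their integrins summed to 2194 CPM (2011 to 2389) over 36 uninjured cells and 1505 CPM (1417 to 1597) over 29 injured cells. No laminin UMI was recorded in the uninjured ones, with an interval up to 15.3 CPM. Itgb5 was at 820 and 471 CPM, Itgam at 360 and 299 CPM, Itgb2 at 269 and 229 CPM and Itgb1 at 215 and 213 CPM. Itgal, the alpha subunit of the lymphocyte-function antigen, was at 91.1 CPM uninjured and 2.75 CPM injured, but 1 of the 36 uninjured cells held 19 of its 22 UMIs there. In the uninjured cells Col27a1 was at 149 CPM of a collagen sum of 170 CPM, and in the injured cells at 6.87 of 50.8 CPM. The uninjured cells came from clusters 0 and 5 and the injured ones from cluster 0. Within cluster 0 the integrins summed to 1820 CPM (1460 to 2242) uninjured and 1505 CPM (1417 to 1597) injured. Its 12 uninjured cells had no collagen UMI, with an interval up to 76.3 CPM, so the uninjured Col27a1 UMIs all lay in cluster 5. Astrocyte-like cells, used in the uninjured library only with 29 cells, had Itgb8 at 369 CPM, Itga6 at 241 CPM, Itgav at 198 CPM and Itgb5 at 70.2 CPM. Their collagens were Col1a2 at 101 CPM, Col9a3 at 43.9 CPM, Col11a2 at 35.1 CPM and Col5a3 at 30.7 CPM, and their laminins Lamb2 at 30.7 CPM and Lama2 at 21.9 CPM. Col9a3 overlaps the antisense gene Tcfl5.

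Set against these classes, EpA cells of the uninjured library had the highest level of the collagens Col8a2, Col23a1 and Col26a1 and the laminin Lama3. In the injured library, where no astrocyte-like class was used, this held for the collagens Col4a5, Col4a6, Col8a2, Col11a1 and Col23a1, the laminins Lama5 and Lamb2, and the integrins Itgav, Itgb4 and Itgb8, while Itga2b was at 15.9 CPM in both EpA and endothelial-like cells. Itgb8 was at 55.5 CPM in uninjured EpA cells against 369 CPM in uninjured astrocyte-like cells and 5.74 CPM or less in the other classes of that library. Such ranks follow from which classes were sampled and say nothing of replicates.

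**Figure D4:**
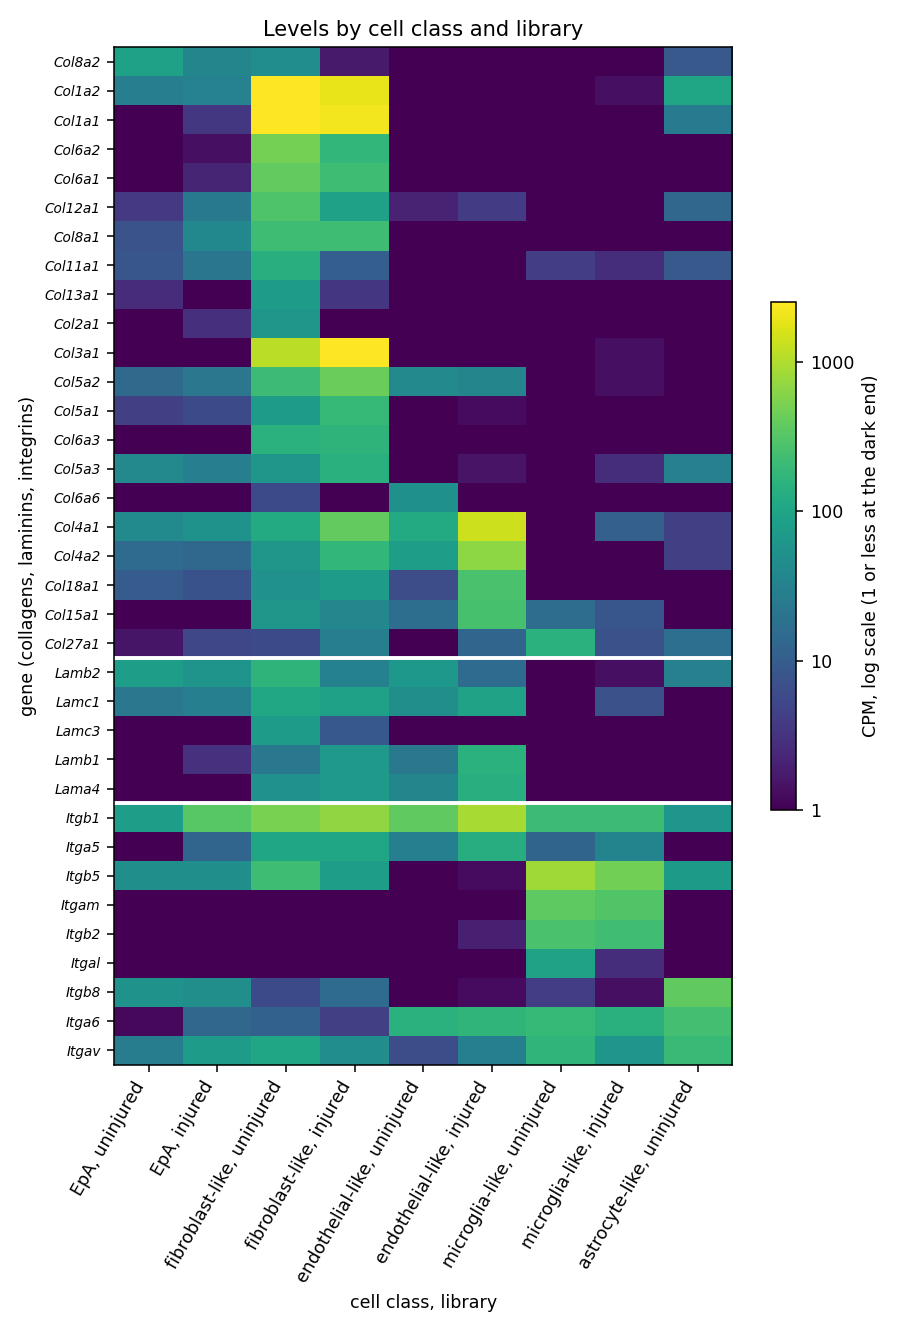
CPM on a colour log scale (1 or less at the dark end) of members that reached 50 CPM in at least 1 class, by cell class and library, with white lines between collagens, laminins and integrins. Fibrillar collagens are bright in fibroblast-like columns, as Col1a1 at 2786 and 2207 CPM, Col4a1 and Col4a2 in injured endothelial-like cells at 1400 and 670 CPM, and Itgam and Itgb2 in microglia-like columns.

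Other genes of the matrix pathway were counted in EpA cells from 5 lists. Among all measured genes 11.4% were called higher and 11.4% lower, and the count of each list is to be read beside these shares. Of the genes named as higher in this and the next paragraph, all but Bmp1, Rpsa and Actn4 were under 10 CPM in uninjured EpA cells. They were thus measured only through the injured group, and the lower Frem2 only through the uninjured group. Of 18 measured genes for collagen processing and crosslinking, 6 were called higher after injury and 0 lower. Fkbp10, a collagen chaperone, was at 3.12 and 22.2 CPM, Pcolce2, an enhancer of procollagen C-proteinase, at 2.99 and 14.7 CPM, Bmp1, that proteinase, at 14.0 and 47.7 CPM, and P4ha3, a prolyl 4-hydroxylase subunit, at 5.20 and 12.8 CPM. The median log2 ratio of this list was 0.67. Of 9 measured other basement membrane proteins, 4 were higher and 2 lower. The fibulin Fbln2 had 1 UMI (0.130 CPM) and 867 UMIs (34.3 CPM), a ratio of 264 (47.2 to 10421). Pxdn, the peroxidase that crosslinks type IV collagen, was at 1.69 and 11.9 CPM and Fbln1 at 5.85 and 26.4 CPM, whereas Frem2 was at 11.2 and 3.48 CPM, 3.22-fold lower (2.36 to 4.38).

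Receptors other than integrins included 3 higher of 9 measured and 0 lower, where 11.4% and 11.4% of all genes were called. The hyaluronan receptor Cd44 was at 2.34 and 55.5 CPM, a ratio of 23.7 (14.9 to 40.1), and the heparan sulfate proteoglycan Sdc3 at 2.21 and 34.1 CPM. Rpsa, a ribosomal protein also described as a laminin receptor, was at 815 and 3542 CPM, and Sdc2 was at 187 and 97.5 CPM, within 2-fold. Among 24 measured integrin adaptor and focal adhesion genes, 3 were higher and 0 lower, where the share of all genes called higher was 11.4%. They were Pdlim7 at 7.28 and 95.7 CPM, zyxin (Zyx) at 8.06 and 41.5 CPM and alpha-actinin 4 (Actn4) at 38.6 and 128 CPM. Talin (Tln1), which links integrins to actin, was at 48.8 and 93.2 CPM, a ratio of 1.91 (1.71 to 2.14). Of 8 measured genes of TGF-beta and its integrin-linked activation, 4 were higher and 1 lower, beside the same shares of all genes. Tgfb1 was at 0.390 and 23.7 CPM, and the latent TGF-beta binding protein Ltbp4 at 1.95 and 23.4 CPM. Tgfbr3, a coreceptor, was 2.28-fold lower (1.96 to 2.65), at 37.8 and 16.6 CPM.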

How the data were processed

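The values are raw UMI counts per gene and cell, deposited by the authors without normalisation. The tools named in the submitters' processing notes are Cell Ranger 3.0.1 and Seurat, and the build is mm10. For the annotation and strand setting of the counting, the sources used here name none. The 2 library tables held 876 and 1566 barcodes, and the authors' tables of EpA cells and of all kept cells gave the sets. A gene missing from a library's table, which lists genes seen in at least 3 cells, was taken as 0.

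UMIs were summed over cells and scaled to counts per 1000000 (CPM). Log2 ratios had 0.5 counts added, levels carry exact Poisson and ratios exact conditional binomial 95% intervals, and a side without UMIs was set to 3 counts. The totals of EpA cells make 1 UMI 0.130 CPM uninjured and 0.0395 CPM injured. No test was made, since each group is 1 library. Cells outside EpA were clustered with scanpy 1.11.5 (2000 variable genes, 20 components, 15 neighbours, Leiden resolution 0.5). A cluster was named with at least 3 detected markers, at 100 CPM in 25% of its cells, and a 2-fold lead over other classes. Scrublet called 4 and 4 barcodes doublets, 1 and 3 of them EpA cells, too few to show that doublets were absent, and none was removed in the main analysis.

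Described in full were members of at least 10 CPM in EpA cells, up to 4 of highest CPM per family in each class, a fixed set of genes, and up to 4 genes of largest ratio per pathway list; 1 gene that this rule names is not reported here. The members and lists were chosen with earlier results of these data known. Alternatives covered the floor on CPM, the added count, scaling (edgeR 4.0.16 TMM and DESeq2 1.42.0 size factors on the deposited counts, or UMIs per cell), cell weights, thinning and cell filters. The calculation was tested on simulated Poisson counts with known changes, which hold no variation between cells or libraries. Gene positions are from GENCODE on GRCm38 and promoters from RefSeq on GRCm38.p6.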

Additional observations from a re-analysis of the deposited data

Results flagged for a closer look

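3 of 19 members measured in both comparisons were higher in injured EpA cells but lower in injured cells outside EpA, against 1.21% of 8102 genes. Outside EpA, 12 of 42 measured members were higher and 17 lower after injury, against 9.18% and 22.4% of all measured genes. The log2 ratio of injured over uninjured was 1.40 in EpA cells and -2.29 outside EpA for Col11a1. It was 2.70 and -1.29 for Col12a1, and 1.47 and -1.18 for Itgav. In the uninjured library Col11a1 was called higher outside EpA than in EpA cells. That call was lost without the cell with the most of its UMIs, with thinning and with UMIs per cell. Outside EpA the level of Itgav was 88.9 CPM without injury and 39.5 CPM after it. Each direction rests on 1 library a side, the difference was not tested, and the mix of cells outside EpA differed between the libraries.

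Barcodes that the authors left out, 165 uninjured and 338 injured, also held transcripts of these genes, and 10 of them were higher in the injured than in the uninjured left-out barcodes with a counting interval wholly past 2-fold, against 4.79% of 10267 measured genes. By size alone 17 of 37 measured members were higher and 4 lower, against 17.4% and 16.7% of those genes. In injured left-out barcodes Col1a1 was at 332 CPM, Col4a1 at 320 CPM, Itgb1 at 318 CPM, Col4a2 at 145 CPM and Col3a1 at 130 CPM. Itga5 was at 62.6 CPM, Col18a1 at 51.6 CPM, Lama4 at 33.2 CPM, Lamb1 at 32.4 CPM and Col15a1 at 31.7 CPM. In uninjured left-out barcodes Col1a1 was at 89.5 CPM, Itgb1 at 77.7 CPM and Col4a1 at 47.3 CPM, and Itga5, Lamb1 and Col15a1 were at 0. The left-out barcodes had a median of 2272 and 2350 UMIs.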

How the results depend on the processing

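Each group was 1 library, so variation between animals was not measured, and depth limits genes of a few UMIs such as Itga5 and Col4a6 in uninjured EpA cells. No paired analysis was possible because each group had 1 library. The 10 members higher and 3 lower in injured EpA cells became 2 and 1 at a floor of 50 CPM, 25 and 12 with no floor, and 6 and 0 in cells thinned to 2000 UMIs. All deposited barcodes gave 16 higher, UMIs per cell 0 lower, and cells weighted alike 1 lower. Outside EpA in the uninjured library, 32 higher and 6 lower became 11 and 1 at 50 CPM, and UMIs per cell gave 10 lower. In the injured library, 25 higher and 9 lower became 14 and 1 at 50 CPM and 38 and 16 with no floor. Other alternatives kept these counts within 1.5 times. Of 442 single-gene ratios under the alternatives for injured over uninjured EpA cells, 77 moved beyond their interval. No gene called higher or lower changed direction, and changes of direction were not counted for genes without a call. For outside over EpA, 34 of 408 moved in the uninjured and 68 of 408 in the injured library. Col5a3 turned direction in the uninjured library with cells weighted alike, at a log2 ratio of 0.52. The causes were not tested.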

Other observations

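Cluster 1 outside EpA, with 34 injured cells and no class name, held ependymal markers at 3996 CPM beside endothelial markers at 3243 CPM, and its collagens summed to 724 CPM, laminins to 115 CPM and integrins to 548 CPM. Cluster 3, also without a class name, had 21 injured cells with integrins at 364 CPM (265 to 489) and collagens at 49.7 CPM (18.2 to 108).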
